A study of Schizosaccharomyces pombe with 22 samples.

Results

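The introns described here are the first introns of Schizosaccharomyces pombe genes, at least 52 and under 202 bases long in the authors' annotation, for which lariat reads gave exactly 1 branch point. They number 695, which is 51.7% of the 1344 first introns of those lengths and 14.8% of all 4701 annotated introns. Of the other first introns of those lengths, 403 had several branch points and 246 had none. They were chosen by the measured lariat reads themselves, so the single branch point is a rule and not a finding, and the level of reads and the branch point position are given as descriptions.

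Splicing cuts an intron at its 5' splice site and joins that end to an adenosine near the 3' end, the branch point, which leaves the intron as a lariat. The enzyme Dbr1 normally opens lariats so that they are degraded, and cells without it keep them. A read across the joint of a lariat names both the 5' splice site and the branch point of one splicing event.

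Lariats were sequenced from total RNA of the dbr1 deletion in the 972h- background (written delta dbr 972h- in the labels) that had been heat shocked, had passed the diauxic shift on using up their glucose, or grew in rich media. Every lariat library carried the deletion, and growth was at 30 °C outside heat shock. Each condition had 4 libraries, from long and short gel fractions of 2 replicates, and the authors deposited 1 summed count per condition, so no difference between conditions had a replicate check and no test could be made. Junctions of polyadenylated RNA came from 10 RNA-seq libraries of wild type and delta dbr 972h- in the same conditions and of strain ED668 with and without upf1.

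The 3' ends of 16 of these introns are shown first, since they span the branch point positions and the changes described below. Each runs from the branch motif to the last base of the intron, 5' to 3'. Capitals mark the 5-base branch motif, whose 4th base is the branched A, and the closing AG. Positions are those of the authors' files, and the letters were read from the ASM294v3 reference at those positions.
cul3, chrI:488518-488528, reverse strand: CTGACatttAG
sgo1, chrII:968605-968615, reverse strand: CTAACtttcAG
sss1, chrI:756882-756893, reverse strand: CTAATagaacAG
SPAPB1A11.02, chrI:2980618-2980629, forward strand: CTAACcttgcAG
mug95, chrI:5099513-5099525, reverse strand: CTAATcatggtAG
rsm7, chrI:3519140-3519154, reverse strand: CTAATattttgatAG
res2, chrI:686974-686988, forward strand: TTAACcaaactatAG
ubc4, chrII:715516-715531, forward strand: CTAACatgatatatAG
rps2402, chrII:2181064-2181080, forward strand: CTAACggaaatttatAG
isa1, chrIII:1231360-1231376, reverse strand: TTAACtagtttctttAG
arp6, chrIII:1212142-1212158, forward strand: CTAACgatagtttttAG
ltv1, chrI:2852156-2852174, forward strand: CTAACgaaaatatgaatAG
tlg1, chrII:2393772-2393793, forward strand: CTGACatttattcgaaatatAG
mis16, chrIII:584270-584291, forward strand: CTGACgattatactcgtttcAG
hif2, chrIII:194667-194693, forward strand: TTAACattatcgtgttttttgttgtAG
pyp3, chrI:5299204-5299230, forward strand: CTAACttagtcttctttatttatatAG

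The introns were short and lay near the start of the coding sequence. Their median listed length was 69 bases (quartiles 59 and 89), against 67 bases (58 and 84) in the 820 later introns with 1 branch point. By gene and intron number 672 were found in the RefSeq annotation, each listed 1 base longer than the reference has it, and 670 of these were also intron 1 there. There 643 of the 672, or 95.7%, interrupted the coding sequence. A median of 118 coding bases preceded them (quartiles 54.5 and 236), against 313 coding bases (182 and 567) before the later introns. Within 50 coding bases of the start codon lay 142 of the 643, or 22.1%, against 1.49% of the later introns, a difference that the intron number itself favours. For 331 of the 672, or 49.3%, the intron was the only one of its gene. The intron fell between codons in 43.2% of the 643 and inside a codon in the rest. They lay 311 on chromosome I, 253 on chromosome II and 131 on chromosome III, which is 44.7%, 36.4% and 18.8%, and all first introns were spread alike (44.7%, 37.3% and 18%).

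The branch point lay close to the 3' end in nearly all of them. Counted from the listed length, the distance from the branched A to the 3' end had a median of 13 bases, quartiles of 11 and 15, a range of 8 to 31 and an SD of 3.24 over the 695 introns. Counted on the reference, where an intron is 1 base shorter, the median was 12 and the range 7 to 30 over 672 introns. The most frequent listed distance was 12 bases, at 98 introns. Distances of 11 to 17 bases took in 499 introns (71.8%), distances of 8 to 10 took in 123 (17.7%), and 73 introns (10.5%) had 18 or more. The later introns with 1 branch point had the same median of 13 and the same quartiles of 11 and 15, with a range of 8 to 47.

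**Figure D1:**
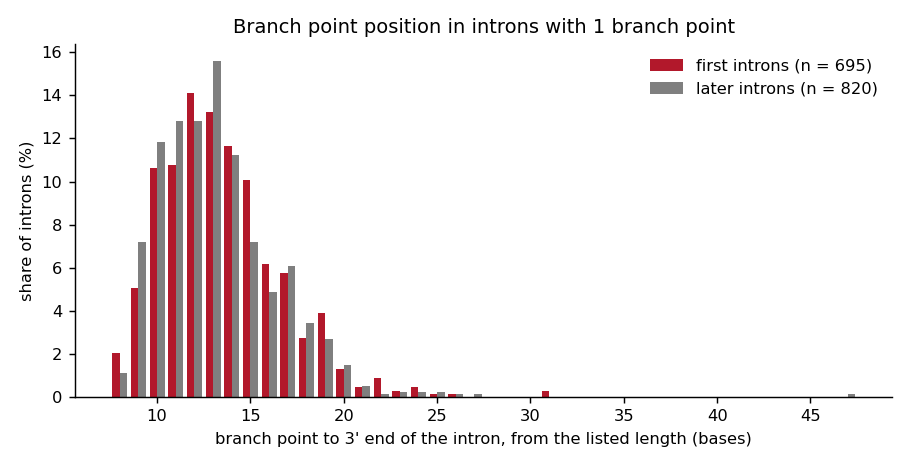
Share of introns (%) at each listed distance in bases from the branch point to the 3' end of the intron, for 695 first introns and 820 later introns with 1 branch point. Both sets peak at 12 or 13 bases, with 71.8% of the first introns at 11 to 17 bases.

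Distance varied little with the length of the intron or the number of reads behind it. The median was 13 bases at lengths of 52 to 75, 13 at 76 to 100, 12.5 at over 100 to 150 and 13 above that. Across the 695 introns length and distance had a Pearson r of 0.03 and a Spearman rho of 0.06, and reads and distance had a rho of -0.02. These correlations are across introns that share the same libraries and carry no test. The 475 introns with at least 10 reads, the 251 with at least 100 reads and the 54 with a single read all had a median of 13.

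Among the 251 introns with at least 100 reads, the shortest listed distance was 8 bases. It was held by cul3, a cullin scaffold of ubiquitin ligases, with 200 reads, by tim11, a subunit of the mitochondrial ATP synthase, with 370 reads, by dbl5, an E3 ubiquitin ligase, with 357 reads, and by sgo1, the shugoshin that guards centromeric cohesion, with 134 reads. The intron of sss1, a subunit of the protein translocon, had a distance of 9 bases with 13927 reads. In cul3 and sgo1 the sequences above show 4 bases between the branch motif and the closing AG. At the other end stood mvp1, a sorting nexin, with 31 bases and 136 reads. Pyp3, a tyrosine phosphatase, had 24 bases with 3042 reads, hif2, of the Set3 histone deacetylase complex, 24 bases with 3116 reads, and apc10, of the anaphase-promoting complex, 24 bases with 135 reads. Pvg1, a Golgi pyruvyl transferase, had 22 bases with 189 reads.

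The letters at the branch point were those known for fission yeast. The branch motif read CTAAC in 338 introns (48.6%), CTAAT in 143 (20.6%), TTAAC in 94 (13.5%) and CTGAC in 36 (5.18%). A T stood 2 bases before the branched A in 692 of the 695. Forms that begin with CT, have A or G next, then the branched A and end in C or T made 75.5% of the first introns, against 77.6% of the later introns with 1 branch point. Among first introns with at least 100 reads these forms made 83.7%. The median number of reads was 49.5 for CTAAC, 46 for CTAAT, 63 for CTGAC and 17.5 for TTAAC, without a correction for length. The median distance was 13 bases for the 3 most frequent motifs and 14 for CTGAC.

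The splice sites had 2 common forms at the start and 3 at the end. The 5' splice site read GTAAGT in 208 introns (29.9%) and GTATGT in 152 (21.9%), against 27.6% and 20.4% of the later introns. The 3' end read TAG in 505 introns (72.7%), CAG in 124 (17.8%) and AAG in 66 (9.5%), and in the later introns these shares were 69.4%, 18.5% and 12%. The splice site was the first AG after the branch point in 556 introns (80%), against 82.7% of the later introns. With at least 100 reads the share was 73.7% in first introns and 75.3% in later introns. Introns that passed over an earlier AG had the same median distance of 13 bases as those that used the first, and a median of 74 reads, against 30 reads. T made up 44.5% and A 30.9% of the bases between the branch point and the last 3 bases.

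Reads were spread very unevenly over the introns. The 695 introns held 462793 lariat reads with a median of 36, and 251 introns had at least 100 reads, 60 at least 1000 and 6 at least 10000. The median was 330 reads in the 209 first introns with 2 branch points and 964 in the 403 with several, where 98.6% of the reads lay at the branch point with the most. How many branch points an intron is given thus moves with its number of reads, and the part of depth in the count of 1 was not tested. At the edges of the length rule, first introns with 1 branch point and a length of 51 had a median of 11 reads (25 introns) and those of 52 a median of 9.5 reads (24 introns). At the long edge, the single introns just inside and just outside the rule had 98 and 97 reads.

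The intron of rps2402, a 40S ribosomal protein gene, had the most reads, 122565, or 26.5% of all reads of these introns, but its counts by condition were 7 after heat shock, 0 after the diauxic shift and 0 in rich media. The condition counts also fell short of the total for cpc2, grx1, cnl2 and SPAC212.04c, and these 5 introns were left out of every comparison of conditions. Next came asn1, asparagine synthetase, with 60268 reads, of which 8190 came after heat shock, 19482 after the diauxic shift and 32596 in rich media. Sss1 had 13927 reads, with 1301 after heat shock, 10227 after the diauxic shift and 2399 in rich media. The remaining introns of the 10 with the most reads were aut12, an autophagy gene, with 12308, isa1, of iron-sulfur cluster assembly, with 11972, the MAP kinase gene pmk1 with 10670, the cytokinesis gene cyk3 with 7185, crb3 with 6843, mcp7 with 6466 and the splicing factor gene cwf29 with 6389. In read numbers not scaled for depth, cyk3 was highest in rich media, with 471 reads after heat shock, 1023 after the diauxic shift and 5691 in rich media. Crb3, of a ribosome maturation complex, had 1308 reads after heat shock, 3934 after the diauxic shift and 1601 in rich media.

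The 690 introns with complete counts held 49184 reads after heat shock, 121360 after the diauxic shift and 165140 in rich media. That was 11.9% of the annotated branch reads after heat shock (Wilson 95% interval 11.8 to 12), 9.53% after the diauxic shift (9.48 to 9.58) and 13.2% in rich media (13.1 to 13.2). These intervals cover counting error only, since reads amplified by PCR are not independent molecules. Without asn1 the shares were 9.89% after heat shock, 8.0% after the diauxic shift and 10.6% in rich media. Reads were found at 446 of the introns after heat shock (median over all introns 2 reads), 471 after the diauxic shift (median 3) and 672 in rich media (median 20). Annotated branch reads in all numbered 414698 after heat shock, 1273655 after the diauxic shift and 1253548 in rich media. Depth in aligned reads differed otherwise, with 9467948 after heat shock, 9854589 after the diauxic shift and 53284863 in rich media. Ratios below are scaled by the annotated branch reads, and the choice between the 2 totals changes ratios taken without the length step.

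Short introns were fewer among the lariats of both stress conditions than in rich media, in first and later introns alike. At 52 to 75 bases, 425 first introns held 2430 reads after heat shock, 1902 after the diauxic shift and 29303 in rich media, a scaled ratio to rich media of 0.251 after heat shock (exact 95% counting interval 0.240 to 0.261) and 0.0639 after the diauxic shift (0.0610 to 0.0669). Over 150 bases, 69 first introns held 5127 reads after heat shock, 7752 after the diauxic shift and 6176 in rich media, a ratio of 2.51 after heat shock (2.42 to 2.60) and 1.24 after the diauxic shift (1.19 to 1.28). Over introns with at least 50 reads in the higher of the conditions compared, the median log2 ratio of heat shock to rich media was -2.56 at 52 to 75 bases, -0.80 at 76 to 100, 0.35 at over 100 to 150 and 1.60 above that. The same medians after the diauxic shift were -4.29, -1.84, 0.57 and 0.68. In later introns they were -2.31, -0.78, 0.40 and 1.76 after heat shock, and -4.06, -1.94, 0.59 and 0.63 after the diauxic shift. Long and short gel fractions are summed in each condition, and their part in the trend with length cannot be told apart from the condition in these sums.

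**Figure D2:**
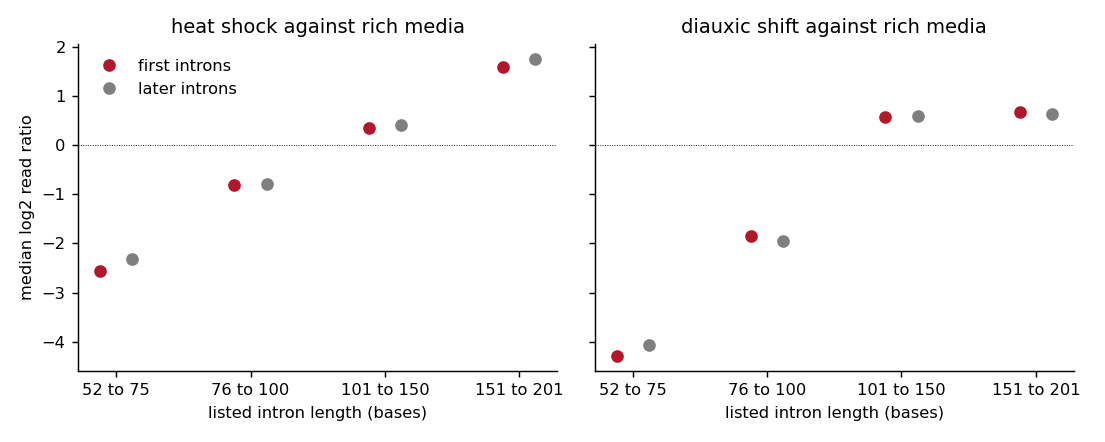
Median log2 ratio of lariat reads to rich media (vertical axis) in 4 classes of listed intron length (horizontal axis, bases), for first and later introns with 1 branch point and at least 50 reads in the higher condition. In both sets the shortest class lies lowest, at -2.56 for heat shock and -4.29 for the diauxic shift in first introns.

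Each intron was therefore set against introns of like length, by taking its log2 ratio minus the running median of neighbouring introns sorted by length. Both counts had 0.5 added first. An intron is called above or below its peers here when it differs from them by more than 2-fold. Of the 690 introns, 265 had enough reads to be compared for heat shock and 279 for the diauxic shift. Of these, 10 and 24 had under 50 reads in rich media and entered through their stress reads alone, and 150 and 133 had under 50 stress reads and entered through rich media alone, so the reads that let them in also leaned them to that side. Among those called above, 3 of 33 after heat shock and 14 of 56 after the diauxic shift had entered through their stress reads alone. Of those called below, 35 of 45 after heat shock and 29 of 46 after the diauxic shift had entered through their rich media reads alone. After heat shock, 33 of 265 first introns lay above their peers (12.5%), where 13.2% of all 1299 introns compared did, and 45 lay below (17%), where 15.2% of all did. After the diauxic shift, 56 of 279 lay above (20.1%), where 15.8% of all 1338 introns did, and 46 lay below (16.5%), where 17.9% did. The median difference from the peers was -0.01 for heat shock and 0.01 for the diauxic shift, both log2. The later introns with 1 branch point gave 12.6% above and 16.3% below after heat shock, and 17.4% above and 17.1% below after the diauxic shift. All 4 shares of the first introns lay within 5 percentage points of those of all introns, and the differences were not tested, so the results below concern single introns. With later introns alone as peers, 56 first introns lay above after heat shock.

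**Figure D3:**
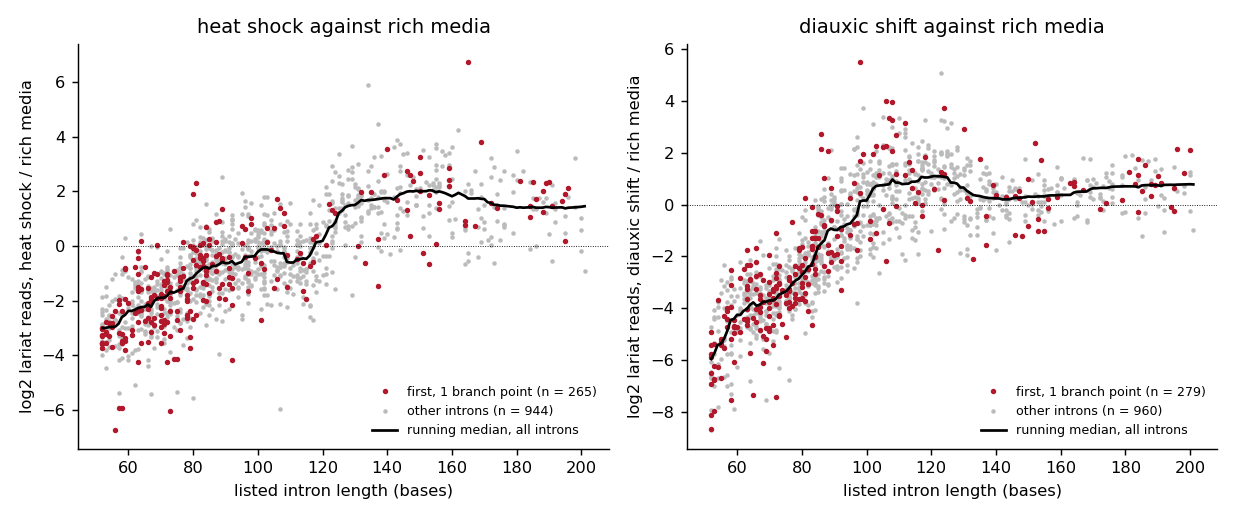
Log2 ratio of lariat reads, heat shock (left) or diauxic shift (right) over rich media, against listed intron length in bases. Red points are the 265 and 279 first introns with 1 branch point, grey points are other introns, and the line is the running median over introns of like length that each ratio is set against.

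For most of these calls the counting interval lay on the same side of the peers as the call. The intervals come from the same counts that made the calls and take the running median as fixed, so they are no independent check. The 95% counting interval lay wholly above the peers for 33 of the 33 called above after heat shock and for 54 of 56 after the diauxic shift. It lay wholly below for 41 of 45 after heat shock and 36 of 46 after the diauxic shift. The interval lay wholly beyond 2-fold for 19 and 16 introns after heat shock (above and below) and for 29 and 14 after the diauxic shift. Among those called below, 4 introns had 0 reads after heat shock and 8 had 0 after the diauxic shift. For such introns the fold is also given with 3 reads in place of 0, which leaves out counting error, and in that form 2 of the 4 and 1 of the 8 were more than 2-fold below.

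After heat shock the intron of res2 stood highest against its peers. Res2, a subunit of the MBF complex that drives transcription at the start of S phase, had 86 reads after heat shock, against 2 in rich media. It lay 4.97 above its peers on the log2 scale (95% counting interval 3.39 to 8.36), and after the diauxic shift it had 20 reads. It entered the comparison through its heat shock reads alone. SPBP8B7.32, which encodes an uncharacterized protein, had 2168 reads after heat shock, against 1331 in rich media, and lay 3.31 above (3.21 to 3.41). Ubc4, a ubiquitin-conjugating enzyme that acts on misfolded and short-lived proteins in budding yeast, had 1894 reads after heat shock, against 1552 in rich media, and lay 3.03 above (2.94 to 3.13). For both the reads after heat shock outnumbered those in rich media although the heat shock libraries held fewer reads in all.

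The other introns of the 10 highest lay 1.84 to 2.43 above their peers. Ssb3, a subunit of the single-stranded DNA binding factor RPA, had 28 reads after heat shock, against 75 in rich media. Tif211, the alpha subunit of the translation factor eIF2, had 32 reads after heat shock, against 111 in rich media. Mik1, a kinase that holds back entry into mitosis, had 22 reads after heat shock, against 66 in rich media. These 3 introns are 63 to 69 bases long, in the length class with a median log2 ratio of -2.56, so they stand above their peers although their read numbers were below those in rich media. Isa1 had 2933 reads after heat shock, against 3507 in rich media, and lay 1.93 above (1.85 to 2.00). Fps1, an enzyme of isoprenoid synthesis, had 98 reads after heat shock, against 21 in rich media, and entered through its heat shock reads alone. Yfh7, a uridine kinase whose intron lies outside the coding sequence in the reference, had 105 reads after heat shock, against 96 in rich media. Sgo1 had 25 reads after heat shock, against 103 in rich media.

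Among the introns lowest after heat shock, mis16 had 0 reads, against 99 in rich media. With 3 reads in place of 0 it lay 3.43-fold below its peers, and the upper end of its counting interval was -1.45 on the log2 scale. Mis16 is a histone chaperone that helps load CENP-A at centromeres. Mrpl33, a mitochondrial ribosomal protein, had 0 reads after heat shock, against 161 in rich media, and lay 2.31-fold below with 3 reads in place of 0, with an interval that ended at -0.89, short of 2-fold. Rpt1, an ATPase of the proteasome, had 0 reads after heat shock, against 91 in rich media, and naa20, an N-terminal acetyltransferase, had 0, against 92. With 3 reads in place of 0 they lay 1.40-fold and 1.67-fold below, short of 2-fold. Tlg1, a SNARE of membrane traffic, had 6 reads after heat shock, against 352 in rich media, and lay 3.61 below on the log2 scale (interval of the difference -5.18 to -2.59). Ltv1, which helps mature the small ribosomal subunit, had 11 reads after heat shock, against 95 in rich media, a difference of -3.17 (-4.28 to -2.32). Its8, of GPI anchor synthesis, had 83 reads after heat shock, against 397 in rich media, a difference of -2.69 (-3.06 to -2.35). Uso1, SPBC32H8.01c and SPAC1782.02c had 2, 2 and 3 reads after heat shock, against 131, 100 and 69 in rich media, and their intervals reached -0.90, -0.96 and -1.19.

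**Figure D4:**
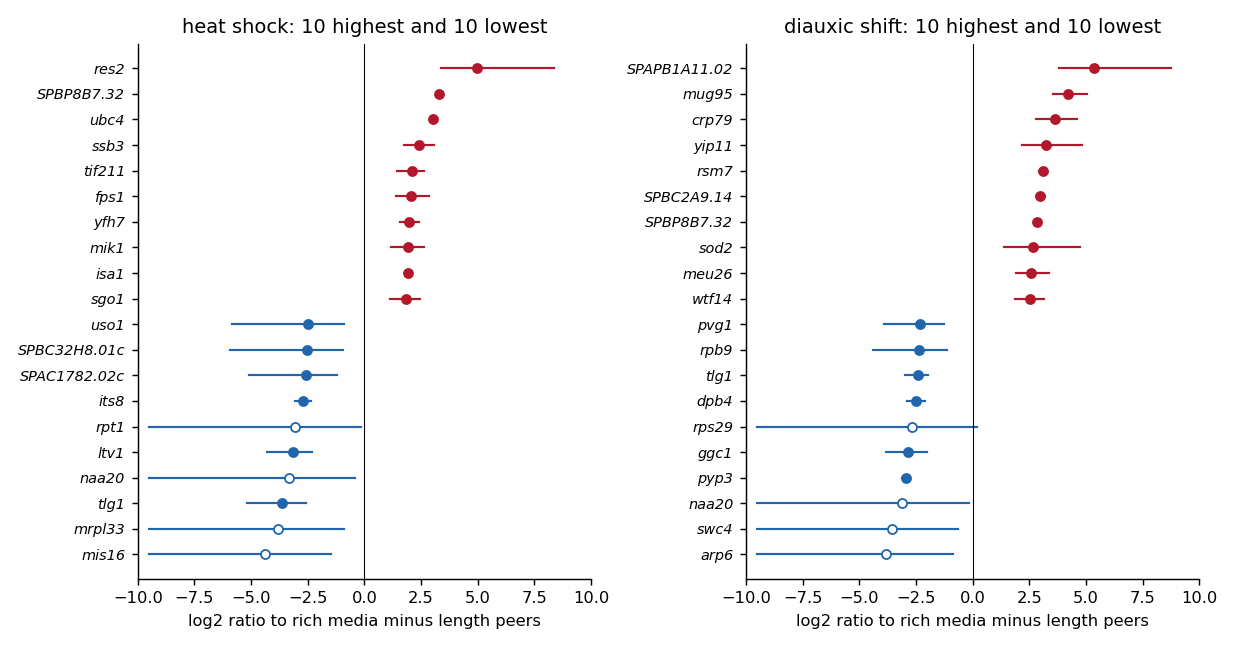
Log2 ratio to rich media minus the running median of introns of like length (horizontal axis) for the 10 highest and 10 lowest first introns after heat shock (left) and after the diauxic shift (right). Lines are 95% counting intervals, and open circles are introns with 0 reads in the stress condition, whose position depends on the pseudocount and whose line runs to the edge. The interval of rps29 on the right crosses 0.

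The 10 introns highest against their peers after the diauxic shift lay 2.53 to 5.37 above them. SPAPB1A11.02, annotated as an esterase or lipase, had 114 reads after the diauxic shift, against 2 in rich media, and lay 5.37 above its peers (3.80 to 8.75). Mug95, from a set of genes upregulated in meiosis, had 124 reads after the diauxic shift, against 18 in rich media, and lay 4.22 above (3.54 to 5.06). Crp79, a poly(A)-binding protein gene, had 64 reads after the diauxic shift, against 14 in rich media, and lay 3.63 above (2.82 to 4.62). Meu26, also named for its rise in meiosis, had 202 reads after the diauxic shift, against 19 in rich media, and lay 2.56 above (1.92 to 3.36). All 4 had fewer than 10 reads after heat shock, and each entered the comparison through its diauxic shift reads alone.

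Deeper counts stood behind rsm7, SPBC2A9.14 and SPBP8B7.32. Rsm7, a protein of the small mitochondrial ribosomal subunit, had 1222 reads after the diauxic shift, against 282 in rich media, and lay 3.10 above (2.92 to 3.30). SPBC2A9.14, which encodes an uncharacterized protein, had 3654 reads after the diauxic shift, against 232 in rich media, and lay 2.98 above (2.79 to 3.18). SPBP8B7.32, high after heat shock too, had 1606 reads after the diauxic shift, against 1331 in rich media, and lay 2.83 above (2.73 to 2.94). Yip11, of the SMN complex that assembles spliceosomal particles, had 105 reads after the diauxic shift, against 6 in rich media. Sod2, the mitochondrial manganese superoxide dismutase, had 60 reads after the diauxic shift, against 4 in rich media, and lay 2.65 above (1.38 to 4.73). Both yip11 and sod2 entered the comparison through their diauxic shift reads alone. Wtf14 had 31 reads after the diauxic shift, against 66 in rich media, and belongs to a family of near copies between which reads can be split, so its log2 difference of 2.53 is uncertain.

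At the low end after the diauxic shift stood 2 genes of the Swr1 complex, which places the histone variant H2A.Z. Arp6 had 0 reads after the diauxic shift, against 85 in rich media. With 3 reads in place of 0 it lay 2.32-fold below its peers, and its interval ended at -0.89, short of 2-fold. Swc4 had 0 reads after the diauxic shift, against 80 in rich media, and lay 1.98-fold below with 3 reads in place of 0. It had 15 reads after heat shock. Naa20 had 0 reads after the diauxic shift as well, 1.42-fold below on the same count. Rps29, a 40S ribosomal protein gene, had 0 reads, against 198 in rich media, and its interval reached 0.21 above the peers, so the interval crosses 0. Pyp3 had 496 reads after the diauxic shift, against 2228 in rich media, a difference from its peers of -2.96 (-3.10 to -2.82). Ggc1, a mitochondrial guanine nucleotide transporter, had 15 reads after the diauxic shift, against 51 in rich media, and lay 2.85 below (interval of the difference -3.82 to -2.03). Dpb4, of DNA polymerase epsilon, had 62 reads after the diauxic shift, against 265 in rich media, with a difference of -2.48 (-2.91 to -2.09). Tlg1 had 36 reads after the diauxic shift, against 352 in rich media, with a difference of -2.43 (-2.99 to -1.95). Rpb9, of RNA polymerase II, had 4 reads after the diauxic shift, against 305 in rich media, and pvg1 had 6, against 162.

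Both comparisons use the same rich media counts, so an intron that is high or low in rich media moves in both. Of 260 introns compared in both, 30 were called in both, with 12 above in both, 11 below in both and 7 on opposite sides. The same count over all introns was not made, so these numbers describe single introns and not the set. Aut12 was above in both, with 2006 reads after heat shock, 6966 after the diauxic shift and 3336 in rich media, at 1.59 and 2.41 above its peers. Swc4 went opposite ways, 1.45 above after heat shock and with 0 reads after the diauxic shift. With 3 reads in place of 0 its diauxic shift value falls short of the call, as given above. Mik1 was 1.94 above its peers after heat shock, with 2 reads after the diauxic shift.

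Distance from the branch point to the 3' end had a weak negative correlation with the difference from the peers, described without a test. Pearson r was -0.14 and rho -0.10 over 265 introns after heat shock, and r was -0.18 and rho -0.19 over 279 after the diauxic shift. The points share the same summed libraries. The 10 highest after heat shock had a median distance of 12.5 bases (8 to 15) and the 10 lowest 16 (10 to 21), with ranges that overlap. At the diauxic shift the 10 highest had a median of 10.5 (9 to 14) and the 10 lowest 14.5 (8 to 24), and all introns compared had 13 in both.

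Gene lists are described by counts beside the shares of all introns given above, and members called rest on single introns. Ribosome biogenesis had 10 genes with such an intron. Of the 6 compared after heat shock 4 lay more than 2-fold below their peers and none above, with a median of -1.36, where 15.2% of all introns lay below. Besides ltv1 these were rio2, a kinase of small subunit maturation, with 270 reads after heat shock, against 775 in rich media (-1.89), arx1, an export factor of the large subunit, with 22, against 57 (-1.47), and grc3, a polynucleotide kinase of rRNA processing, with 35, against 618 (-1.25). All but rio2 had under 50 reads after heat shock and entered through their rich media reads alone. The list does not hold every gene annotated to this function. Off it stood llp1, a ribosome biogenesis protein, with 354 reads after heat shock, against 92 in rich media (1.79, interval 1.46 to 2.14). The rRNA dimethylase gene cdh1 was off it too, with 26, against 144 (1.66, interval 0.98 to 2.25). How many genes off the list lay below was not counted, so the count and median hold for the 6 listed genes alone. At the diauxic shift 2 of the 6 lay below, ltv1 at -1.85 and rio2 at -1.34, and the median was -0.77.

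Cytoplasmic ribosomal proteins had 22 genes on the list, of which 13 could be compared for heat shock and 12 for the diauxic shift. After heat shock 2 lay above, 1 below, and the median was 0.12. Rpl4302 had 73 reads after heat shock, against 454 in rich media (1.24), rpl8 had 89, against 595 (1.09), and rpl3602 had 17, against 449 (-1.49). At the diauxic shift none lay above and 4 below, with a median of -0.52. With 3 reads in place of 0 for rps29, 3 lay below and the median was -0.49. Rps2202 had 111 reads after the diauxic shift, against 251 in rich media (-1.47), rpl2702 had 6, against 188 (-1.18), and rps2401 had 58, against 1554 (-1.05). Several of these genes have near copies, between which reads can be split.

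Splicing factors had 13 genes, and 7 of the 8 compared after heat shock had a negative difference, with a median of -0.72, though 1 alone passed 2-fold. That was smb1, a core Sm protein, with 3 reads after heat shock, against 120 in rich media (-1.37, interval -3.89 to -0.01). Sap49, cwf14 and lsm7 had 2, 6 and 2 reads after heat shock, and their intervals crossed 0. Mug161 and SPAC222.18, annotated as splicing factors, are off the list. Mug161 had 723 reads after heat shock, against 1076 in rich media, and lay 1.41 above its peers (1.27 to 1.55). SPAC222.18 had 88, against 361 (-0.06), so the count of negatives holds for the listed genes alone. After the diauxic shift 4 of the 8 listed were negative and 2 passed 2-fold, sap61 with 0 reads, against 123 in rich media, and ntr2 with 2, against 85. The interval of sap61 reached 0.67 above the peers, and with 3 reads in its place 1 of the 8 lay below and the list's median was 0.21 in place of -0.03. Cwf29, the most deeply covered, was 0.94 above its peers after the diauxic shift (0.86 to 1.01). RNA decay had 8 genes and 3 compared, of which edc3, a decapping enhancer, lay below in both stresses, with 23 reads under heat shock and 71 at the diauxic shift, against 318 in rich media (-1.61 and -1.31).

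Meiosis and mating had 17 genes on the list, which also holds autophagy genes and res2. After the diauxic shift 4 of the 7 compared lay above their peers and 1 below, with a median of 2.29. Of these 4, 3 had under 50 reads in rich media and entered through the diauxic shift reads in which they are high, so neither the count nor the median describes the list as a whole. Besides mug95, crp79 and meu26 this was atg1, the kinase that starts autophagy, with 24 reads after the diauxic shift, against 80 in rich media (2.29, interval 1.55 to 2.94). After heat shock 2 of 5 lay above, res2 and mcp7, a meiotic recombination factor, with 1283 reads after heat shock, against 2331 in rich media (1.32). Res2 entered through its heat shock reads alone.

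Ubiquitin and proteasome genes numbered 18. After the diauxic shift 4 of 13 lay above, where 15.8% of all introns did, and none below, with a median of 0.76. The proteasome subunit gene rpn2 had 16 reads after the diauxic shift, against 90 in rich media (1.62), and ubp2 had 124, against 157 (1.27). Ubc4 had 508, against 1552 (1.09), and ubc15 had 563, against 1361 (1.05). All 4 thus had fewer reads than in rich media and stood above their length peers only. Their intervals began at 0.72, 0.92, 0.94 and 0.91, short of 2-fold. After heat shock 2 lay above, ubc4 and rpn2 (1.56), and 2 below, rpt1 and the deubiquitinase gene ubp8, with 5 reads after heat shock, against 166 in rich media (-2.13), and the median was 0.06. With 3 reads in place of 0 for rpt1, 1 lay below. Transcription regulators numbered 19. After the diauxic shift 5 of 10 lay below, where 17.9% of all introns did, and 1 above, with a median of -1.36. With 3 reads in place of 0 for arp6 and swc4, 4 lay below and the median was -0.95. Arp6, swc4 and rpb9 are given above and entered through their rich media reads alone. Mbx1, a MADS-box factor, had 60 reads after the diauxic shift, against 11 in rich media (2.07). It entered through its diauxic shift reads alone. After heat shock 1 of the 10 lay above and 1 below.

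Core stress response had 3 genes, with sod2 and trx2, a mitochondrial thioredoxin, compared after the diauxic shift. Trx2 had 1484 reads after the diauxic shift, against 1562 in rich media, and lay 2.25 above its peers (2.15 to 2.35), while after heat shock it had 200 reads and a difference of -0.57. Heat shock proteins had 1 gene with such an intron, with 53 reads and too few per condition to compare, and glycolysis had none. Among 16 secretory genes, sec13, of the COPII coat, had 78 reads after heat shock, against 216 in rich media (1.69), and pep12, a SNARE, had 51, against 157 (-1.60). After heat shock 1 of 6 lay above and 2 below, and after the diauxic shift 2 of 8 lay above and 2 below (1 with 3 reads in place of 0 for tlg2), and the list holds yip11 by name although its annotated role is in the SMN complex. Yip11, called above after the diauxic shift, entered through its diauxic shift reads alone.

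The remaining lists were mixed. Cell cycle and replication had 22 genes, with 3 of 8 above and 2 below after heat shock and 1 of 7 each way after the diauxic shift. Of the 3 above after heat shock, res2 entered through its heat shock reads alone. Mitochondrial translation had 13, with 1 of 5 above and 1 below after heat shock and 1 of 5 above after the diauxic shift. Respiration had 9, with 1 of 4 below in each comparison, atp3 after heat shock (3 reads, against 67 in rich media) and cox8 after the diauxic shift (2 reads, against 83). Idh2, a subunit of isocitrate dehydrogenase, had 1568 reads after the diauxic shift, against 702 in rich media, and lay 0.40 above its peers (0.27 to 0.53). Translation factors had 11, and gcn1, which activates the eIF2 kinase Gcn2, had 2 reads under heat shock and 5 at the diauxic shift, against 132 in rich media. Of the 4 translation factor introns compared, 1 lay above and 1 below after heat shock, tif211 and gcn1, and 1 below after the diauxic shift.

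A single branch point at the annotated 3' splice site did not mean a single lariat. The authors' tables list 563 alternate lariats at 297 of the 695 introns (42.7%), with 17521 reads, against 34.3% of the later introns. By their splice sites, 248 used an upstream and 118 a downstream 3' site, and 137 an upstream and 60 a downstream 5' site. For 362 of the 563 the RNA-seq libraries held no junction read. At 36 introns an alternate had more reads than the annotated lariat. Yih1 had 10530 reads at an alternate and 1 at the annotated site, though only 12 of the alternate's reads are split by condition, as 1 after heat shock, 3 after the diauxic shift and 8 in rich media, and no junction read was listed. Deb1, a DNA-binding transcription factor gene, had 1235 reads at a downstream alternate and 6 at the annotated site, with 165 junction reads. Its alternate had 95 reads after heat shock, 892 after the diauxic shift and 248 in rich media.

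Both of these alternates branch 7 bases before the annotated 3' end, as near as the nearest annotated branch point. Of the 118 downstream alternates, 29 branched at that distance or nearer to the annotated end, and they held 11986 reads at 28 introns. The sources used here do not say how a branch point was assigned to the annotated or a downstream site. Atg5, an autophagy gene, had 589 reads at an upstream 5' splice site and 576 at the annotated one, with 116 junction reads. SPCC1259.16 had 325 and 49 reads in the same way, with 127 junction reads. Bor1 had 248 reads at a downstream 3' site and 5 at the annotated one, and btb3 had 217 and 5. Lariats that skip an exon began at 18 of these introns, of 230 in all, with 168 reads, of which SPCC126.11c and pwi1 had 72 each.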

How the data were processed

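Lariat values are whole read counts for each pair of 5' splice site and branch point, which the authors added up over the 4 libraries of a condition and deposited without scaling for depth. The other values (positions, listed lengths, aligned reads and kinds of alternates) are the authors' own assignments, as deposited. The submitters' processing notes name the build ASM294v2, and no aligner is named in the sources used here. All 17799 deposited branches start with GT and branch at an A when read on the ASM294v3 reference. All 695 introns matched the name table, 615 with a symbol, and sequences and gene models came from RefSeq.

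Members have a listed length of 52 to 201 bases, an intron number of 1 and 1 row with a branch point. Condition comparisons used introns whose condition counts sum to their total (45 introns did not), with at least 50 reads in the higher condition. Log2 ratios took a pseudocount of 0.5, were scaled by annotated branch reads (heat shock over rich media 0.331, diauxic shift over rich media 1.02) and set against the running median over 101 introns in order of length. Intervals are exact 95% for ratios and Wilson for shares. The deposited sums allow no test between libraries, so the planned test of counts per library was not run. Calculations were tested on simulated counts. Work was done in Python 3.11.15 with NumPy 2.4.6, SciPy 1.17.1, pandas 2.3.3 and matplotlib 3.10.9.

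The introns and gene lists were chosen with earlier results of these data known. Named introns are the 10 highest and 10 lowest in each comparison, the 10 with most reads, the 5 shortest and 5 longest distances with at least 100 reads, and up to 4 per gene list. The introns named for alternates, skipped exons and calls in both comparisons, and those with incomplete counts, were chosen after their values were seen. Those named as off a gene list were chosen in the same way.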

Additional observations from a re-analysis of the deposited data

How the results depend on the processing

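No paired analysis was possible because the deposited lariat counts are summed over the replicates of a condition, and leaving out a replicate was not run for the same reason. The median distance was 13 bases also with at least 10 reads, at least 100 reads and lengths under 100 bases, and 12 on reference positions. The first introns called after heat shock (33 above, 45 below) became 53 above with at least 20 reads, 143 and 157 with no minimum, 17 and 22 at a 3-fold call, and 56 above with later introns as peers. Those called after the diauxic shift (56 and 46) became 37 above with at least 100 reads, 165 and 154 with no minimum, and 27 and 21 at 3-fold, and with later introns as peers the median became -0.10. The read minimum also changes how many introns are compared. With no minimum all 690 introns with complete counts entered, against 265 for heat shock and 279 for the diauxic shift. Without the length step and scaled by annotated reads, 143 lay below after heat shock (median -1.19) and 179 after the diauxic shift (median -2.19). Scaled by aligned reads instead, 68 lay above and 92 below after heat shock (median -0.29), and 115 and 89 after the diauxic shift (median 0.27). The 40 differences named at the ends of the comparisons kept direction and call under the settings with a length step, where at least 100 reads left out 16 of them. The 3-fold setting leaves the values as they are, and introns with 0 reads rest on the pseudocount. Without the length step 64 of 80 values kept the call, 9 fell short of 2-fold in the same direction (ssb3, mik1 under both scalings, its8, tif211, sgo1 and ltv1 after heat shock, SPBP8B7.32 and tlg1 after the diauxic shift) and 7 reversed, namely tif211 (-0.18) and sgo1 (-0.43) after heat shock and wtf14 (-1.10) after the diauxic shift with annotated reads, and its8 (0.24) after heat shock and dpb4 (0.35), ggc1 (0.70) and pyp3 (0.27) after the diauxic shift with aligned reads. The share of reads was 10.2% after heat shock, 8.27% after the diauxic shift and 11.6% in rich media over all branch reads, and 9.89% after heat shock, 8.0% after the diauxic shift and 10.6% in rich media without asn1, a setting that was chosen after seeing the data. With at least 100 reads CTAAC made 53%, the 4 forms 83.7% and the first AG 73.7%. At this depth 0 reads limit how large a loss can be shown.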
